A study of Mus musculus with 4 samples.

Results

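Type I interferon-stimulated genes were followed in single mouse thymocytes with and without a floxed Cgas gene. The set holds 35 genes, listed by name as genes that type I interferon induces, of the 33696 genes in the count matrices, and all 35 were found there. They were read in 8 groups by role: transcription factors of the interferon response, the ISG15 system with its feedback enzymes, sensors and editors of nucleic acids, oligoadenylate synthetases, the IFIT family, virus restriction and membrane effectors, ADP-ribosylation proteins, and other induced genes. The cells were thymocytes sorted as CD4+ CCR7+, a gate that takes maturing T cells, and were profiled by droplet single-cell RNA sequencing with a 3' kit. There was 1 expression library from Cd4Cre mice, called WT, and 1 from Cd4Cre Cgasfl/fl mice, called Cgas KO, so both groups carry the Cre transgene and differ in the floxed Cgas alleles. Cd4 promoter elements drive this Cre mainly in T-lineage cells, so other cells of the thymus largely keep Cgas. How many mice each library came from, and their age and sex, was not stated in the labels used here. The series asks how cGAS affects transcription in these cells, and the comparison of the genotypes addresses that for the interferon-stimulated genes.

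Type I interferons bind the receptor IFNAR, and the kinases JAK1 and TYK2 then activate a transcription factor complex that contains STAT2 and IRF9 and binds interferon-stimulated response elements near its target genes. The targets include antiviral effectors, sensors of foreign nucleic acids and proteins that raise or limit the response, such as IRF7 and USP18. cGAS is a sensor of cytosolic DNA that signals through STING to induce these interferons. In the thymus a low interferon signal is known to act on T cells late in their maturation.

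Values are unique molecular identifiers (UMIs, counted RNA molecules) per 1000000 UMIs of the cells concerned, written CPM. Each genotype had 1 library, so differences carry no replicate check and were not tested. All intervals are 95% intervals that cover counting error only. A gene was taken as measured from 100 UMIs, summed over both libraries, and as lower or higher in Cgas KO at a ratio of at least 1.2-fold.

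The kept cells were 12929 in WT, with a median of 4943 UMIs and 2160 genes, and 14381 in Cgas KO, with a median of 4507 UMIs and 2023 genes. Both libraries held 276 kept barcodes in common, 2.14% and 1.92% of their cells. Cgas stood at 4.49 CPM in WT against 2.92 CPM in Cgas KO (337 and 221 UMIs, ratio 0.651, 0.547 to 0.773). A 3' tag outside the deleted exons would still be counted, so this neither checks the deletion nor the labels. All 9 T cell markers were detected in both libraries, with a summed level of 6719 CPM in WT against 6660 CPM in Cgas KO. The 16 markers of antigen-presenting cells summed to 91.9 and 76.2 CPM, the 4 B cell markers to 5.29 and 4.89 CPM and the 4 epithelial markers to 6.20 and 6.61 CPM. The 4 globin genes stood at 2.11 CPM in WT against 70.3 CPM in Cgas KO, of which S1pr1+ cells held most, at 183.5 CPM there. Siglech was at 0 in both libraries, Xcr1 in WT and Clec9a in Cgas KO. The part of these markers in the results below was not tested.

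Promoter sequences were looked up first, since the members are defined by a shared response. RefSeq promoter entries of build GRCm38.p6, which run from 250 bases before to 50 after a gene's start, were found for 26 of the 35 genes. The core letters of the interferon-stimulated response element, GAAANNGAAA or its reverse TTTCNNTTTC, stood in 12 of these 26 (46.2%) and in 1079 of 27025 genes with an entry (3.99%). Matches may overlap one another, and a match describes letters only. Shown here are upstream stretches of some of the genes with a match, chosen from those whose levels are described below. They are on the strand of the gene, with all matches in capitals and ending before the start site.
Isg15: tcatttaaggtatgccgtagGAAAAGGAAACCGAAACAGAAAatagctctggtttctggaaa
Ifit1: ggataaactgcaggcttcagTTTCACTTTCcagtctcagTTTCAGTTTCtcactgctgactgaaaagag
Ifit3: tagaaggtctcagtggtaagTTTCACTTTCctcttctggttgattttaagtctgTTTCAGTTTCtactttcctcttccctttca
Ifit3b: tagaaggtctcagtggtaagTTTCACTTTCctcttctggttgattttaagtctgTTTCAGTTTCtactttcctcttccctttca
Oas1a: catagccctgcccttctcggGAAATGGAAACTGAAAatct
Oas3: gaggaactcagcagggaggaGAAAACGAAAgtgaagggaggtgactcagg
Rsad2: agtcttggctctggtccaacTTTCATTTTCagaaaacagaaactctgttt
Bst2: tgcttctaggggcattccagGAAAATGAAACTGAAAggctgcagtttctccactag
The Isg15 stretch lies at chr4:156200855-156200916 on the minus strand and holds 3 overlapping matches. The Ifit1 stretch (chr19:34640765-34640833, plus strand) holds 2 separate matches. The Ifit3 stretch (chr19:34583353-34583436, plus strand) and the Ifit3b stretch (chr19:34607749-34607832, plus strand) were identical letter for letter over their 84 bases. Over the whole entries the Ifit3 and Ifit3b promoters were 76.2% identical, against 48.7% to 52.5% for the other pairs of the IFIT family. The Oas1a stretch lies at chr5:120907526-120907565, Oas3 at chr5:120777705-120777754, Rsad2 at chr12:26456543-26456592 and Bst2 at chr8:71537567-71537622, all on the minus strand. The other genes with a match were Stat2, Ifih1, Eif2ak2 and Trim30a. Without a match were Irf9, Irf7, Herc6, Trim25, Adar, Oasl1, Oasl2, Ifit2, Cmpk2, Isg20, Dtx3l, Ifi44, Xaf1 and Ifi35. No entry was found for Usp18, Dhx58, Zbp1, Oas2, Mx1, Rtp4, Parp14, Parp9 and Ifi27l2a.

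Over all kept cells the interferon-stimulated genes were slightly lower in Cgas KO than in WT. Of the 35 genes, 31 had a ratio below 1, against 49.2% of the 13266 genes measured, and the interval lay below 1 for 27, against 16.9% of these genes. Lower by at least 1.2-fold were 8 of the 35, against 5.83% of all genes, and higher by as much were 2, against 6.07%. The median over the 35 genes was a log2 ratio of -0.12 (-0.20 to -0.07), against 0.00 over all genes. Their summed level was 2953 CPM in WT against 2783 CPM in Cgas KO (ratio 0.942, 0.937 to 0.948). Ifi27l2a alone gave 825 and 830 CPM of that sum, and without it the sum was 2128 and 1953 CPM (ratio 0.918). When each cell was thinned to 2000 UMIs, so that every cell weighed the same, 4 genes were lower by 1.2-fold in place of 8 (5.46% of the 11473 genes then measured), and the summed ratio was 0.945.

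**Figure D1:**
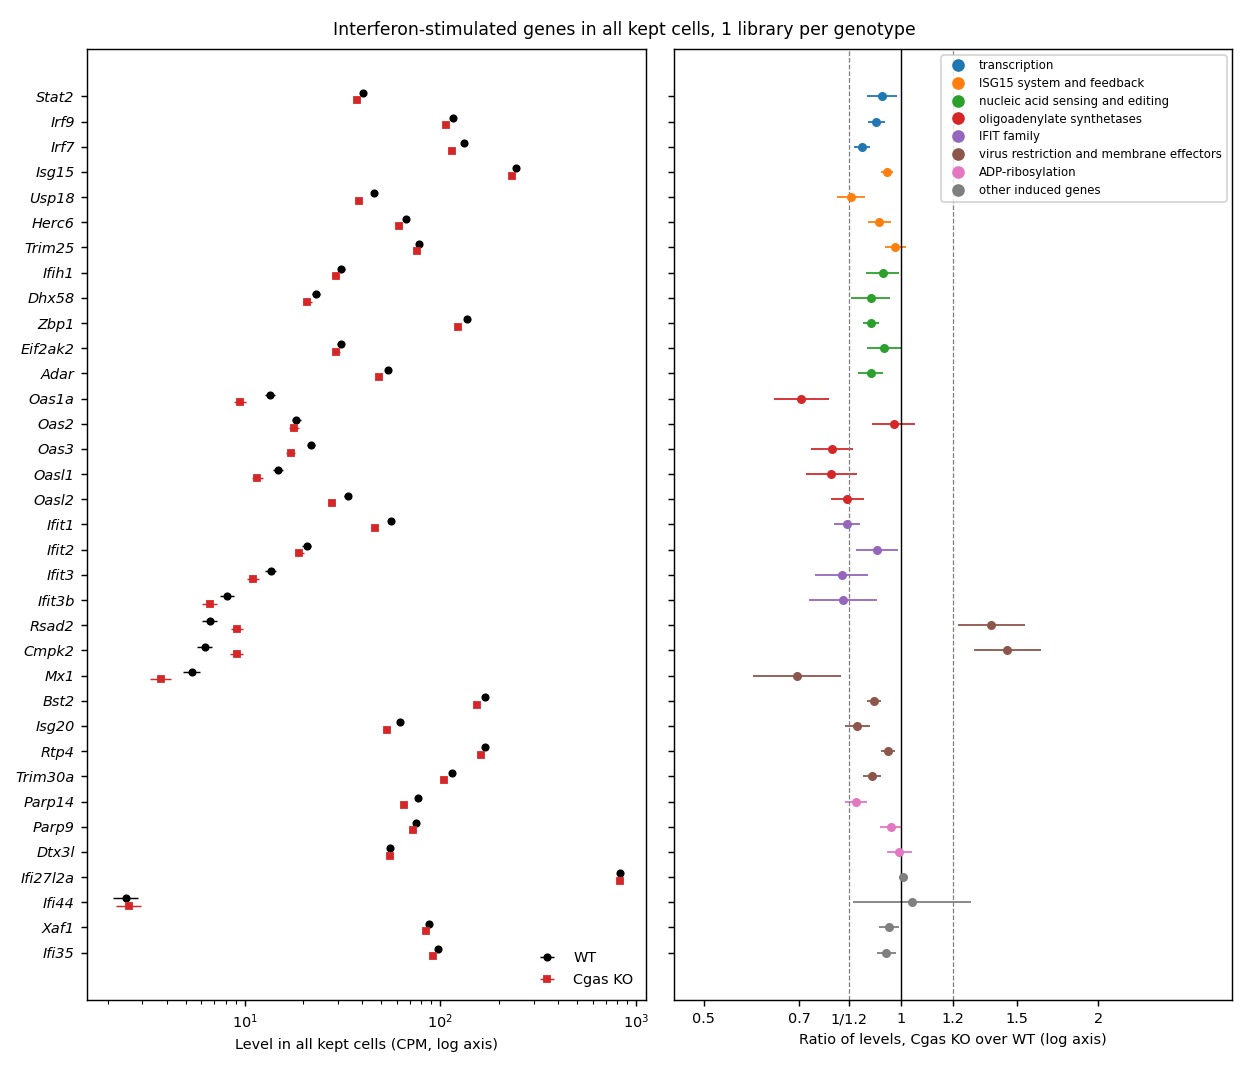
Level of each interferon-stimulated gene in all kept cells of the WT (black) and Cgas KO (red) library in CPM on a log axis, left, and the ratio of Cgas KO over WT, right, coloured by role, with 95% intervals for counting error and dashed lines at 1.2-fold. Most points lie slightly left of a ratio of 1, the oligoadenylate synthetases and the IFIT family among the farthest, and Rsad2 and Cmpk2 lie right of 1.2.

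The 5 oligoadenylate synthetase genes, whose enzymes make the messenger that activates RNase L or are relatives of those enzymes, summed to 102.3 CPM in WT against 84.1 CPM in Cgas KO (ratio 0.822, 0.795 to 0.850). Oas1a stood at 13.5 CPM in WT against 9.51 CPM in Cgas KO, a ratio of 0.705 (0.640 to 0.776). It was the farthest below 1 among the genes with at least 1000 UMIs in WT. Oas3, the largest enzyme of the family, stood at 21.9 and 17.2 CPM (ratio 0.785), Oasl1 at 14.8 and 11.6 CPM (0.783) while Oasl2 had 33.6 in WT and 27.8 CPM in Cgas KO (0.828). Oas2 differed less, with 18.4 and 17.9 CPM and an interval of 0.904 to 1.05. All but Oas2 were thus lower by at least 1.2-fold. With thinned cells Oas1a had a ratio of 0.777, Oas3 of 0.807, Oasl1 of 0.769 and Oasl2 of 0.842, which is short of 1.2-fold for Oasl2. Reads of close relatives in this family may be shared between genes, which makes the split between them uncertain.

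The 4 IFIT genes, which encode tetratricopeptide proteins that bind foreign RNA and limit its translation, summed to 98.5 CPM in WT against 83.1 CPM in Cgas KO (ratio 0.844, 0.816 to 0.873). Ifit1 stood at 56.0 and 46.4 CPM (ratio 0.828, 0.792 to 0.867). Ifit3 stood at 13.6 and 11.1 CPM (0.812) and Ifit3b at 8.13 and 6.64 CPM (0.816). Ifit2 was within 1.2-fold, at 20.8 and 19.1 CPM. Ifit3 and Ifit3b are close copies that may share reads, so their separate values are uncertain. With thinned cells none of the 4 reached 1.2-fold: Ifit1 had a ratio of 0.849, Ifit3 of 0.882 and Ifit3b of 0.895.

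The 7 virus restriction and membrane effectors held both directions. Rsad2, which encodes viperin, stood at 6.67 CPM in WT against 9.15 CPM in Cgas KO (500 and 692 UMIs, ratio 1.37, 1.22 to 1.54). Cmpk2, a mitochondrial nucleotide kinase gene that lies next to Rsad2, stood at 6.27 and 9.10 CPM (470 and 688 UMIs, ratio 1.45, 1.29 to 1.64). These were the only 2 of the 35 genes that were higher in Cgas KO by 1.2-fold. Mx1 stood at 5.37 and 3.73 CPM (ratio 0.694, 0.594 to 0.810), the lowest ratio of the set. The RefSeq annotation lists Mx1 as a transcribed pseudogene in the reference strain. Bst2, whose protein tethers budding virus to the membrane, stood at 170 and 155 CPM (ratio 0.91). Isg20, an exonuclease gene, stood at 62.0 and 53.2 CPM (0.858), Trim30a at 115 and 104 CPM (0.903) and Rtp4 at 168 and 161 CPM (0.956). These last 4 were within 1.2-fold with intervals below 1.

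Genes of the signalling core differed less. Irf7, the transcription factor that amplifies interferon production, stood at 132 CPM in WT against 115 CPM in Cgas KO (ratio 0.872, 0.848 to 0.898). Irf9 stood at 116 and 106 CPM (0.917) and Stat2 at 40.1 and 37.5 CPM (0.935). None of these 3 transcription factors reached 1.2-fold. Isg15, the ubiquitin-like modifier, stood at 243 and 232 CPM (ratio 0.952, 0.933 to 0.972). Usp18, the protease that removes ISG15 and dampens receptor signalling, stood at 45.6 and 38.3 CPM (0.840). Herc6, an ISG15 ligase gene of the mouse, stood at 66.8 and 61.8 CPM (0.926). For Trim25, at 77.9 and 76.2 CPM, the interval of the ratio included 1 (0.944 to 1.02).

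The nucleic acid sensors and the remaining groups were within 1.2-fold throughout. Zbp1, a sensor of left-handed nucleic acid, stood at 138 CPM in WT against 124 CPM in Cgas KO (ratio 0.90), and the RNA editing gene Adar at 54.0 and 48.5 CPM (0.898). The RNA sensor genes Ifih1 and Dhx58 had ratios of 0.938 and 0.899, and Eif2ak2, the kinase PKR, had 0.943. Among the ADP-ribosylation genes Parp14 stood at 76.8 and 65.5 CPM (0.854), while Parp9 had a ratio of 0.965 and its partner Dtx3l of 0.994. Ifi27l2a, the most abundant of the 35, stood at 825 and 830 CPM (ratio 1.01, 0.995 to 1.02). Xaf1 and Ifi35 had ratios of 0.959 and 0.95. Ifi44 had the fewest UMIs, 185 and 194, with an interval of 0.846 to 1.28.

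The states of the cells were gated by marker UMIs, and the gates overlap. Foxp3+ cells numbered 514 in WT and 378 in Cgas KO, S1pr1+ cells 4530 and 4995, Itm2a+ S1pr1- cells 6731 and 7579, Cd8a+ Cd8b1+ cells 2156 and 2030, and Rag1+ cells 545 and 501. The Nr4a1/Egr-high cells, the top 10% for summed Nr4a1, Egr1, Egr2 and Egr3, numbered 1255 and 1476, and 273 and 387 cells lay within 10% of the threshold on either side. S1pr1, the receptor for exit from the thymus, marks mature cells, Itm2a is induced by positive selection, and Rag1 marks cells that still rearrange receptor genes. The gates matched further markers: Klf2 stood at 1414 CPM in WT S1pr1+ cells and 665.5 CPM outside, Rag2 at 101.8 CPM in WT Rag1+ cells and 0.974 CPM outside, and Ikzf2 at 719 CPM in WT Foxp3+ cells and 224 CPM outside. Cd69 did not mark Itm2a+ S1pr1- cells, at 202 CPM inside and 208 CPM outside in WT. Of the WT Rag1+ cells 86.4% were also in the Cd8a+ Cd8b1+ gate, and of the WT Foxp3+ cells 69.7% were also in the S1pr1+ gate. Foxp3 UMIs were found in 1.95% of WT and 1.23% of Cgas KO Cd8a+ Cd8b1+ cells, against 4.38% and 2.86% of the cells outside it, at median depths of 4969 and 4548 UMIs inside.

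Most interferon-stimulated genes were highest in S1pr1+ cells and lowest in Rag1+ cells, in both genotypes. The summed level was 3679 CPM in S1pr1+ cells of WT and 3507 CPM in those of Cgas KO, 3851 and 3486 CPM in Foxp3+ cells, where Ifi27l2a was highest, and 1683 and 1430 CPM in Rag1+ cells. All 35 genes were higher in S1pr1+ than in Itm2a+ S1pr1- cells in both libraries, as were 29.9% of the 13030 genes measured. Higher by at least 1.5-fold in both libraries were 11 of the 35, against 3.77% of all genes, and lower by as much were 0, against 4.08%. The median log2 ratio of the set between these states was 0.47 in WT and 0.52 in Cgas KO, against -0.07 over all genes in each library. These 2 libraries are of different genotype and are no replicates. With thinned cells 7 of the 35 passed 1.5-fold in both libraries, as did 3.79% of all genes.

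Ifit3 differed most between the states. It stood at 24.1 CPM in WT S1pr1+ cells and 7.05 CPM in WT Itm2a+ S1pr1- cells, a ratio of 3.42, and at 18.6 and 6.06 CPM in Cgas KO, a ratio of 3.07. Ifit3b had ratios of 2.35 in WT and 2.61 in Cgas KO. The other members of the family followed with smaller ratios, Ifit1 with 1.57 and 1.63 and Ifit2 with 1.74 and 1.51. Ifi27l2a stood at 1208 CPM in WT S1pr1+ cells and 598 CPM in WT Itm2a+ S1pr1- cells, and at 1232 and 587 CPM in Cgas KO. Oas1a had ratios of 1.96 and 1.93, Cmpk2 of 2.13 and 1.73, and Irf7 of 1.61 and 1.64. The other 3 genes past 1.5-fold were Oasl1, Mx1 and Ifi44. Isg15 hardly differed between these states, with 245 and 242 CPM in WT and 235 and 231 CPM in Cgas KO. Isg20 was also close, with 64.4 and 62.4 CPM in WT.

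**Figure D2:**
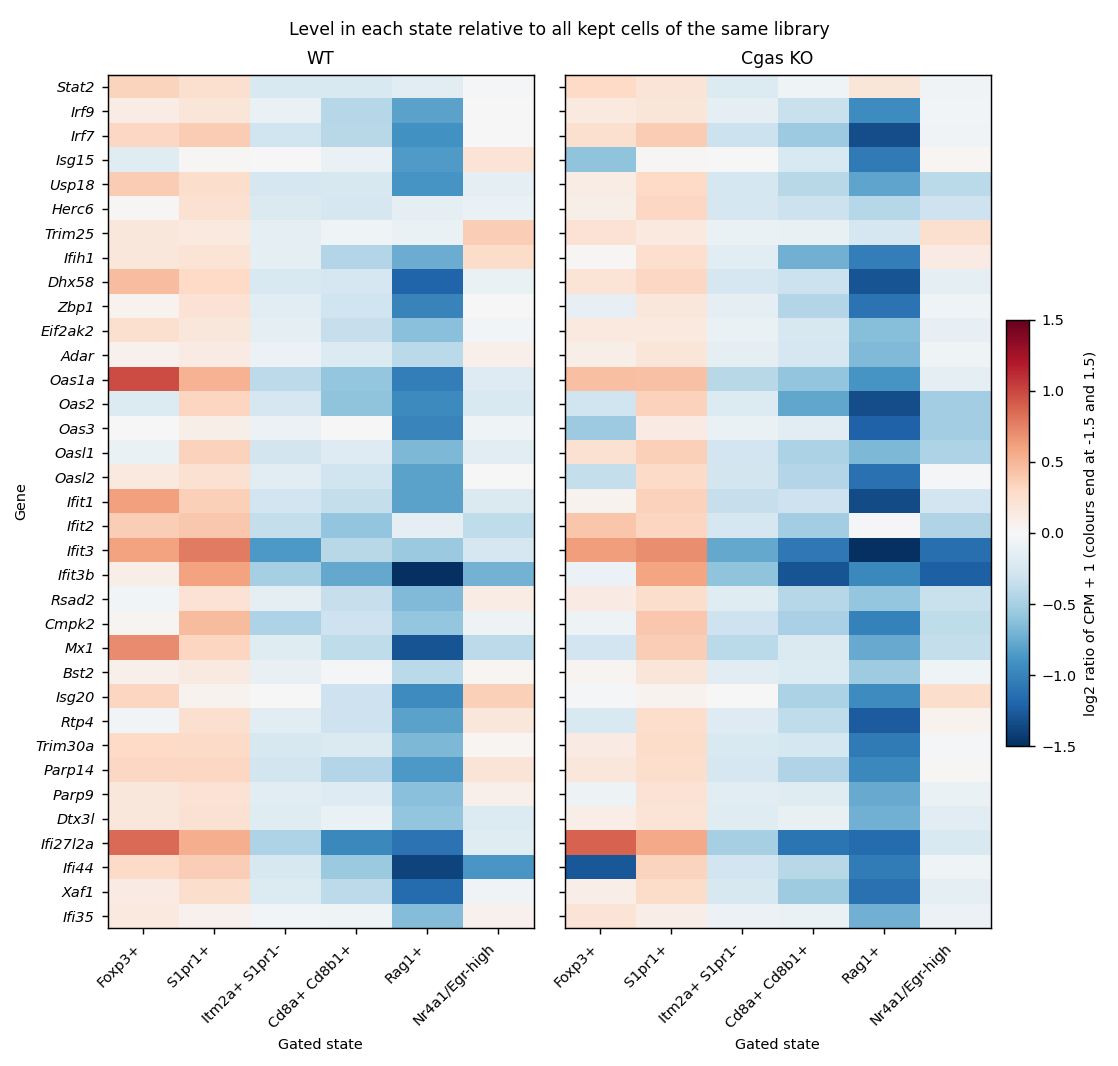
Level of each interferon-stimulated gene in each gated state relative to all kept cells of the same library, as the log2 ratio of CPM with 1 CPM added, for WT (left) and Cgas KO (right), genes with few UMIs included. The S1pr1+ column is red for nearly every gene and the Rag1+ column is blue for nearly every gene in both libraries.

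Set against the cells outside each gate, S1pr1+ cells had 10 of the 35 genes higher by at least 1.5-fold in both libraries (3.32% of all 13266 genes) and 0 lower (4.57%). Itm2a+ S1pr1- cells had 0 higher (2.29%) and 6 lower (3.66%), with Ifit3 at 7.05 CPM inside and 21.2 CPM outside in WT. Rag1+ cells had 29 of the 35 lower (7.83%) and 0 higher (11.5%), and 34 were below 1 in both libraries (31.3% of all genes). The exception was Stat2, at 35.9 CPM inside and 40.3 CPM outside in WT and at 42.8 and 37.3 CPM in Cgas KO. Irf7 stood at 70.1 CPM in WT Rag1+ cells and 135 CPM outside, and at 45.3 and 118 CPM in Cgas KO. Isg15 stood at 134 and 248 CPM in WT and at 110 and 236 CPM in Cgas KO. In 28 of the 35 genes Rag1+ cells had the lowest level of the 6 states in both libraries (11.9% of all genes), and in 20 genes S1pr1+ cells had the highest (4.54%).

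Cd8a+ Cd8b1+ cells, in which Cd4 stood at 169 CPM in WT against 275 CPM outside, had all 35 genes below 1 in both libraries (30.7% of all genes) against the cells outside. Lower by 1.5-fold were 6 (4.31%) and higher 0 (5.29%), among them Ifi27l2a, at 422 CPM inside and 912 CPM outside in WT. In Foxp3+ cells 2 genes were higher by 1.5-fold (4.57%) and 0 lower (4.96%). These were Ifi27l2a, at 1483 CPM inside and 793 CPM outside in WT, and Ifit3, at 21.1 and 13.3 CPM. Nr4a1/Egr-high cells, which carry early genes of receptor stimulation, stood close to the rest, with 0 genes higher (2.0%) and 1 lower (4.34%), the low-count Ifit3b. Isg15 was nevertheless highest there of the 6 states, at 281 CPM in WT against 237 CPM in Cgas KO, as were Trim25 and Isg20.

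The shift between genotypes was then read state by state. Of 22 genes measured in all 6 states, 17 were below 1 in every state and 0 were above 1 in every state, against 13.4% and 12.7% of 6567 such genes. This count was not repeated with thinned cells, and thinning changed the results in Rag1+ and Cd8a+ Cd8b1+ cells, as given below. Oas1a was lower by at least 1.2-fold in all 5 states where it was measured, and Oas3 and Oasl1 in all 4 of theirs. Ifit1 was lower in 5 of 6 states. Rsad2 and Cmpk2 were higher in each of the 3 states where they were measured, with intervals that included 1 in Cd8a+ Cd8b1+ cells. Elsewhere both were under 100 UMIs, and the rise was not seen throughout. In Nr4a1/Egr-high cells Rsad2 stood at 7.25 CPM in WT against 7.05 CPM in Cgas KO, and Cmpk2 at 5.92 and 6.77 CPM. Foxp3+ cells had 6.455 and 10.0 CPM of Rsad2 and 6.455 and 8.59 CPM of Cmpk2. Rag1+ cells had 3.84 and 5.80 CPM of Rsad2 and 3.84 and 3.99 CPM of Cmpk2. Because the gates share cells, these are not independent observations.

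**Figure D3:**
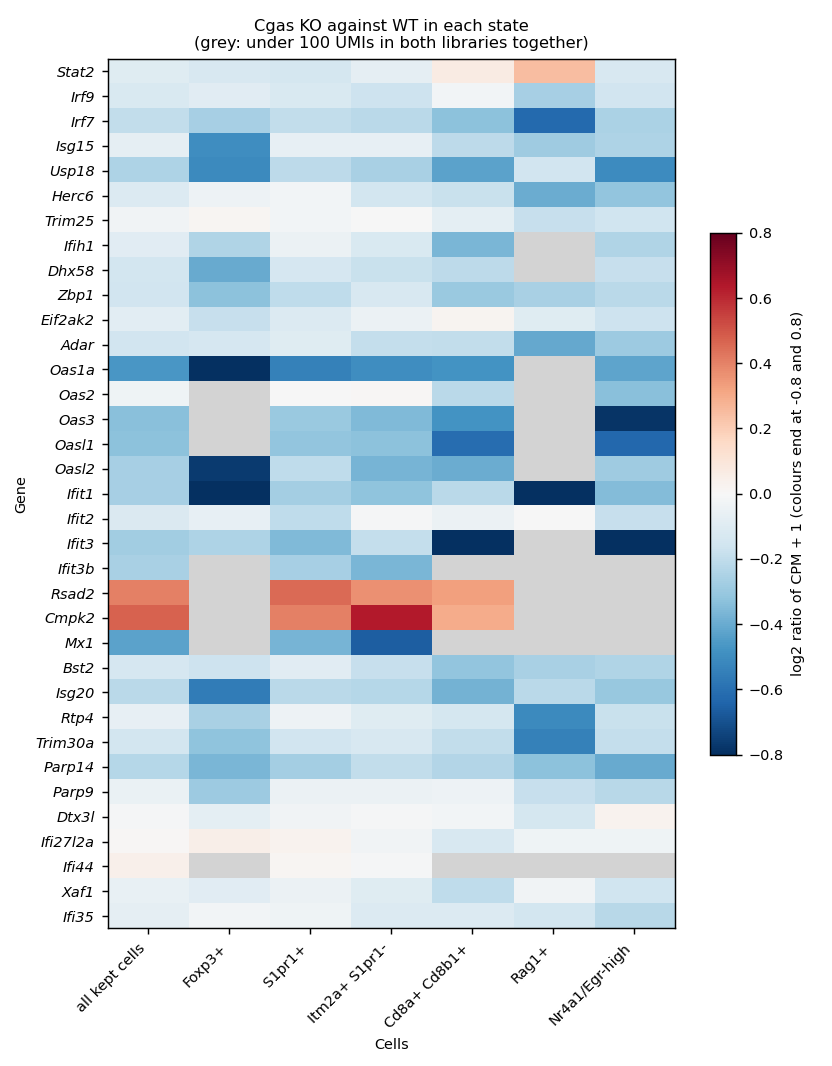
Log2 ratio of Cgas KO over WT, with 1 CPM added, for each interferon-stimulated gene in all kept cells and in each gated state, grey where the gene had under 100 UMIs in both libraries together. Blue (lower in Cgas KO) prevails in all columns, and Rsad2 and Cmpk2 are red wherever they were measured.

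Foxp3+ cells, which carry a UMI of the gene that defines regulatory T cells, had 12 of 27 measured genes lower in Cgas KO (10.9% of 6837 genes) and 0 higher (9.76%). The median log2 ratio was -0.25 (-0.37 to -0.09). Ifit1 stood at 86.0 CPM in WT against 48.2 CPM in Cgas KO (293 and 101 UMIs, ratio 0.561, 0.443 to 0.706). Oas1a stood at 27.6 and 13.4 CPM (94 and 28 UMIs, 0.485, 0.306 to 0.746) and Oasl2 had 37.3 and 21.5 CPM (0.577). Isg20 stood at 77.8 and 52.5 CPM (0.675) and Usp18 at 59.6 and 41.5 CPM (0.697). These 5 were the farthest from 1. Isg15 stood at 215 and 152 CPM (0.706), while Ifi27l2a stood at 1483 and 1532 CPM (1.03). The summed level of the set had a ratio of 0.905 (0.880 to 0.932), and without Ifi27l2a of 0.825. Antigen-presenting markers also differed in this gate, with 210 CPM in WT against 48.7 CPM in Cgas KO over 16 markers, of which 4 and 7 were at 0. Leaving out barcodes with at least 4 markers of other cells removed 1 WT cell of this gate, after which 14 genes were lower and the summed ratio was 0.905. The share over all genes was not counted after this step, so the change from 12 to 14 genes cannot be read as a stronger result. The part of the remaining marker RNA in these ratios was not tested. With thinned cells 5 of 19 measured genes were lower (11.4% of all genes). In the 42 and 25 Foxp3+ cells that were in no other gate the summed ratio was 1.28.

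S1pr1+ cells had 8 of 35 genes lower (5.56% of 11356 genes) and 2 higher (5.72%), with a summed ratio of 0.953 (0.945 to 0.962). The farthest from 1 were Oas1a, at 19.8 CPM in WT against 13.2 CPM in Cgas KO (0.670), Rsad2, with 7.88 CPM against 11.2 CPM (1.42), Cmpk2, with 9.11 CPM against 12.4 CPM (1.36), Mx1, at 6.94 and 5.12 CPM (0.738), and Ifit3, at 24.1 and 18.6 CPM (0.774). The globin level of this gate was 1.81 CPM in WT against 183.5 CPM in Cgas KO. Itm2a+ S1pr1- cells had 8 of 35 lower (5.43% of 12108 genes) and 2 higher (5.75%), with a summed ratio of 0.927 (0.919 to 0.936). There Cmpk2 stood at 4.27 and 7.17 CPM (1.68) and Mx1 at 4.62 and 2.56 CPM (0.555). The set was slightly lower in Cgas KO in both states. These 2 states share no cell but come from the same 2 libraries, so neither is an independent check on the other.

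In Nr4a1/Egr-high cells 12 of 30 measured genes were lower (7.84% of 8929 genes) and 0 higher (7.28%). All 5 oligoadenylate synthetase genes were among the 12, and they summed to 94.7 CPM in WT against 67.7 CPM in Cgas KO (ratio 0.715, 0.634 to 0.806). Ifit3 stood at 11.2 and 4.51 CPM (76 and 32 UMIs, 0.402, 0.257 to 0.614). Oas3 stood at 20.9 and 11.7 CPM (0.561), Oasl1 at 13.2 and 8.18 CPM (0.621) and Usp18 at 41.0 and 28.6 CPM (0.699). The summed ratio was 0.878 (0.860 to 0.896), and 0.869 with thinned cells, when 7 of 24 genes were lower (8.84% of all genes).

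Results in the Cd8a+ Cd8b1+ and Rag1+ gates rested on how cells were weighted. Cd8a+ Cd8b1+ cells had 11 of 32 genes lower (6.52% of 10234 genes) and 2 higher (8.77%), with a summed ratio of 0.877 (0.862 to 0.892). Ifit3 stood at 9.97 CPM in WT against 4.73 CPM in Cgas KO there (0.475). With thinned cells 1 of 26 measured genes was lower (8.45% of all genes) and 0 higher (9.16%), and the summed ratio was 0.931 (0.902 to 0.960). Rag1+ cells had 10 of 22 genes lower (13.5% of 7394 genes) and 0 higher (12.6%), with a summed ratio of 0.850 (0.815 to 0.886). Ifit1 stood at 31.7 and 17.8 CPM (0.560) and Irf7 at 70.1 and 45.3 CPM (0.646). With thinned cells the Rag1+ summed ratio turned to 1.05 (0.975 to 1.13) and 2 of 11 genes were lower (14.3% of all genes), so no direction can be given for Rag1+ cells. The median UMI count of Rag1+ cells was 3585 in WT and 4151 in Cgas KO, the reverse of the order in the other gates.

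Each cell was then scored by how many of the 35 genes it showed at 2000 UMIs. In all kept cells 63.9% (63.0% to 64.7%) of WT and 61.1% (60.3% to 61.9%) of Cgas KO cells showed at least 3. With all UMIs of each cell the shares were 88.4% and 85.1%. S1pr1+ cells had 77.5% and 73.8%, Foxp3+ cells 77.6% and 70.6%, Nr4a1/Egr-high cells 65.5% and 59.8%, Itm2a+ S1pr1- cells 57.3% and 54.0%, and Cd8a+ Cd8b1+ cells 46.4% and 43.4%. Rag1+ cells had 27.7% (24.0% to 31.7%) and 28.3% (24.4% to 32.5%), which did not differ beyond counting error. The intervals of S1pr1+ cells (76.2% to 78.7%) and Foxp3+ cells (73.8% to 81.2%) of WT overlapped. The ratio of shares was 0.957 (0.939 to 0.974) over all kept cells, and its interval included 1 in Cd8a+ Cd8b1+ cells (0.875 to 1.001) and Rag1+ cells (0.842 to 1.24).

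**Figure D4:**
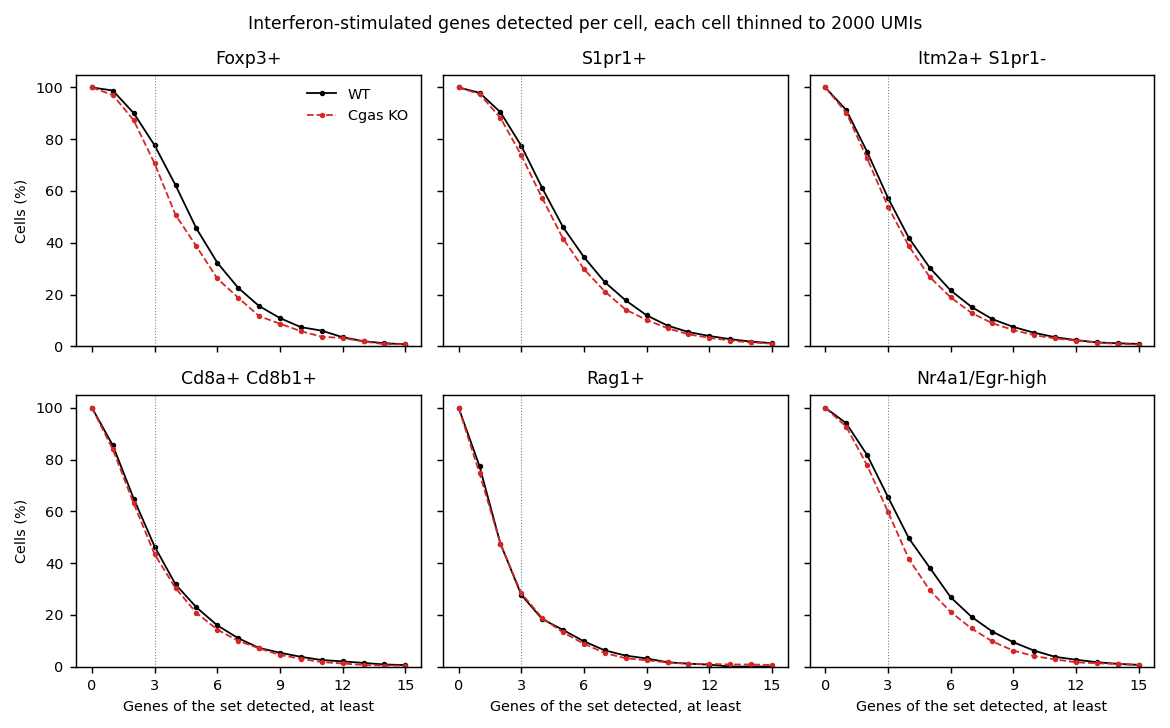
Percent of cells (vertical axis) with at least a given number of the 35 genes detected (horizontal axis) in each gated state, each cell thinned to 2000 UMIs, for WT (black, solid) and Cgas KO (red, dashed), with a dotted line at 3 genes. The curves of S1pr1+ and Foxp3+ cells lie highest and that of Rag1+ cells lowest, and from 1 to 10 genes the Cgas KO curve lies slightly under the WT curve in every gate but Rag1+, where the curves cross.

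A small share of cells showed many of the genes at once. Of the WT cells 35.9% showed at least 5 genes, as did 32.4% of those of Cgas KO, and 6.36% (822 cells) and 5.51% (792 cells) showed at least 10. The cells with at least 10 held 18.4% of all UMIs of the set in WT and 17.2% in Cgas KO. Between 2 and 10 genes the ratio of shares moved further from 1. It was 0.978 (0.966 to 0.990) at 2 genes, 0.902 (0.872 to 0.932) at 5 and 0.866 (0.788 to 0.952) at 10. The intervals at 5 and 10 genes overlapped. The number 10 was chosen after seeing the data. The move away from 1 did not hold to the end of the range, where cells are few. At least 15 genes were shown by 0.998% of WT and 0.834% of Cgas KO cells, but at least 20 by 0.108% and 0.160%. In Nr4a1/Egr-high cells the ratio of shares went from 0.951 at 2 genes to 0.652 (0.468 to 0.907) at 10, with 77 and 59 cells. Cells with at least 10 genes were not deeper than the rest, with medians of 4698 and 4962 UMIs in WT.

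The genes were found together in single cells. Among the 33 genes seen in at least 1% of cells of both libraries, the share of cells with both genes of a pair exceeded the product of the 2 shares for all 528 pairs in each library. The median of this ratio was 1.60 in WT and 1.62 in Cgas KO. Pairs of one of these genes with one of the 9612 (WT) or 9645 (Cgas KO) other genes had a median of 0.984 and 0.985, and 0.313% and 0.314% of such pairs exceeded 2, against 139 and 163 of the 528. The highest ratio was that of Ifit3b and Rsad2, at 13.8 in WT and 14.0 in Cgas KO. Of the 169 WT cells with Ifit3b 16.6% (11.3% to 23.0%) also had Rsad2, against 0.995% (0.830% to 1.18%) of the cells without it. In Cgas KO these shares were 22.1% of 181 cells and 1.32%. The next pairs were Ifit3 with Ifit3b (11.2 and 13.3), Rsad2 with Cmpk2 (9.52 and 10.3), Ifit3 with Rsad2 (7.85 and 8.57) and Ifit3 with Cmpk2 (6.35 and 5.61). The pair of Ifit3 and Ifit3b may share reads.

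**Figure D5:**
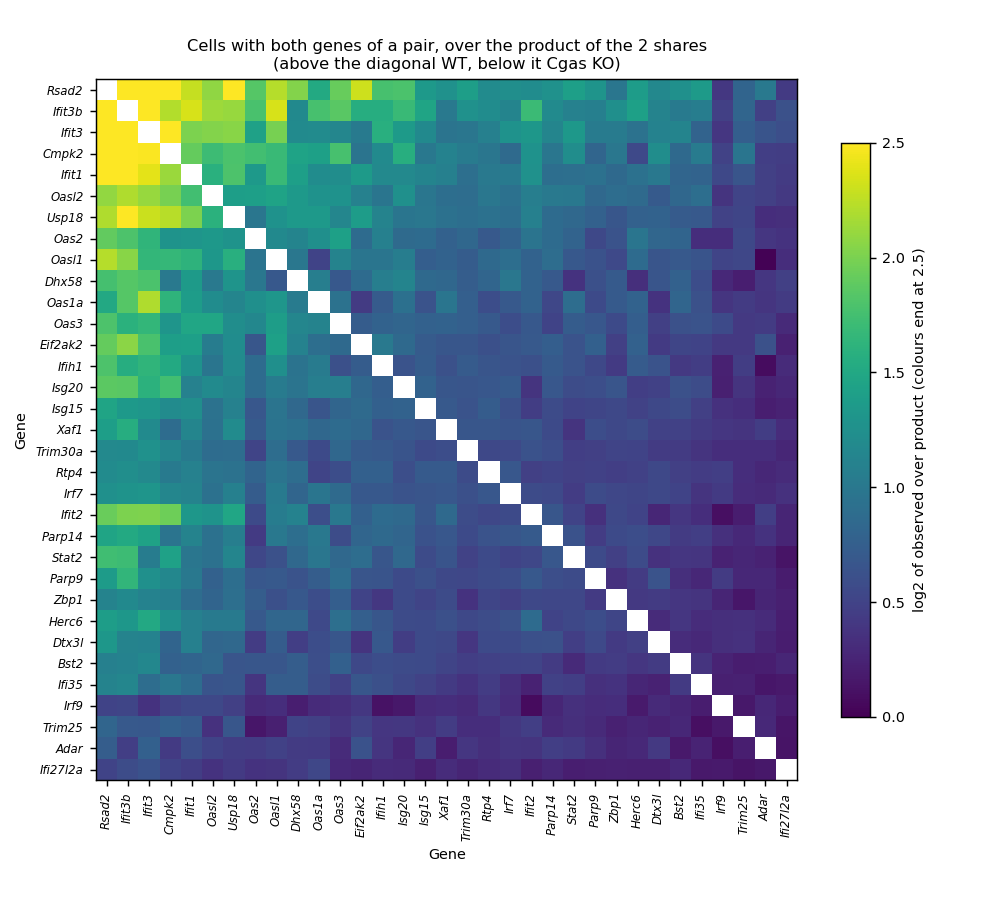
Share of cells with both genes of a pair over the product of the 2 single shares, as log2, for 33 interferon-stimulated genes in cells thinned to 2000 UMIs, WT above the diagonal and Cgas KO below it, genes ordered by their median in WT. The upper left corner of Rsad2, Ifit3b, Ifit3, Cmpk2 and Ifit1 is brightest in both libraries, and the last lines of Irf9, Trim25, Adar and Ifi27l2a are dark.

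Genes differed in this ratio, which depends on how often they are seen. It cannot exceed the inverse of the larger of the 2 shares, so genes seen in many cells have a low ceiling. Rsad2 had a median ratio with the other 32 genes of 2.63 in WT and 2.80 in Cgas KO and was seen in 1.199% and 1.58% of cells. Ifit1 had 2.16 and 2.19, and Usp18, the feedback protease, had 1.93 and 2.20. Ifi27l2a, seen in 58.2% of WT cells, had 1.22 and 1.23, and Irf9 had 1.27 and 1.24. Co-detection was also read within each state, as pairs per cell over the sum of the products. It was lowest in Foxp3+ cells, at 1.25 in WT and 1.32 in Cgas KO, and in S1pr1+ cells, at 1.28 and 1.30. It was highest in Rag1+ cells, at 1.83 and 1.995, where the genes were rarest, with 3.89 and 4.13 pairs per cell against 14.3 and 12.7 in S1pr1+ cells. Cgas KO was above WT in all states but Cd8a+ Cd8b1+ cells (1.64 and 1.63). These ratios rest on sparse counts and have a lower ceiling where genes are common. They therefore do not rank genes or states by strength of linkage and are given as a description.

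Other genes of the interferon pathway were read from a list of 42 found in the matrices, of which 28 were measured in all kept cells. Lower in Cgas KO were 2, Cgas itself and Irf8 (7.67 and 5.64 CPM, ratio 0.735), against 5.83% of all genes, and higher were 0, against 6.07%. Of the 11 ligand genes none was measured. Ifnb1 and the 5 Ifna genes on the list had 0 UMIs in either library, and Ifng had 22 and 16. The receptor genes Ifnar1 and Ifnar2 had 74.9 CPM in WT with 76.3 CPM in Cgas KO, and 78.5 with 81.3 CPM, with intervals that included 1. Samhd1, a nucleotide hydrolase gene, stood at 274 and 230 CPM (0.840), and Sting1, the adaptor of cGAS, at 66.7 and 59.5 CPM (0.892, 0.857 to 0.929). In Foxp3+ cells 5 of 21 measured pathway genes were lower (10.9% of all genes), among them Samhd1, at 419.6 and 344.7 CPM, and Sting1, at 95.4 and 76.9 CPM, and 1 was higher (9.76%), the feedback inhibitor gene Socs1, at 112 CPM in WT against 145 CPM in Cgas KO.

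The 2 genes that were higher in Cgas KO lie side by side on chromosome 12 in the RefSeq gene table. Their neighbour on the other side of Rsad2 was Rnf144a, at 4.84 CPM in WT against 13.7 CPM in Cgas KO (363 and 1033 UMIs, ratio 2.82), and next to it lay Gm36723, at 0.653 and 1.96 CPM (ratio 2.996). Among the 20 nearest measured genes of Cmpk2, Rsad2 included, 6 were higher and 5 lower by 1.2-fold. Id2 stood at 127 and 95.1 CPM (0.751) and Tmem18 at 12.5 and 6.97 CPM (0.556). Over chromosome 12 as a whole 12.2% of 426 measured genes were higher and 9.86% lower, against 6.07% and 5.83% of all genes. For the other 33 genes of the set the median log2 ratio of the nearest measured genes lay between -0.09 and 0.02. Ifi27l2a, the third member on chromosome 12, had a neighbour median of 0.00. Whether the neighbourhood bears on Rsad2 and Cmpk2 was not tested.

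Barcodes too poor to be cells carried the set too. Barcodes with 20 to 199 UMIs held 3336 CPM of the 35 genes in WT and 2914 CPM in Cgas KO, against 2953 and 2783 CPM in kept cells. There 33 genes in WT and 29 in Cgas KO were above their level in cells, against 69.2% and 68.8% of all genes measured in cells, and 27 were lower in Cgas KO than in WT, against 44.0%. Such a barcode held on average 114 UMIs in WT and 118 in Cgas KO, 2.30% and 2.62% of a median cell. Ifit1 stood at 78.8 CPM in WT against 49.8 CPM in Cgas KO in these barcodes, and Ifi27l2a at 674 and 533 CPM. The share of free RNA in the levels of cells was not tested.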

How the data were processed

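Per the labels, CD4+ CCR7+ thymocytes were sorted and sequenced as 1 expression and 1 TCR library per genotype. As deposited, each value is a count of UMIs for a gene in a barcode, and the file headers give Cell Ranger 8.0.1 as its source. A different version, Cell Ranger 7.0, stands in the submitters' processing notes, next to Seurat 5.1.0 and the build mm10. WT had 588428 barcodes, Cgas KO had 586687, and both had 33696 genes. Kept were barcodes with at least 2000 UMIs, 500 genes and at most 10% mitochondrial UMIs, which held 88.5% and 86.6% of all UMIs.

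Counts were summed over the cells of a gate in each library and divided by all UMIs of those cells. A gate needed 1 UMI of each named gene, and 0 of S1pr1 where negative. Ratios have exact conditional binomial intervals, shares Clopper-Pearson intervals, ratios of shares Katz intervals and medians over genes order-statistic intervals. Calls were by size alone: 1.2-fold between genotypes and 1.5-fold between states in both libraries, from 100 UMIs. For counts of genes per cell, each cell was thinned to 2000 UMIs. No kept cell is shallower. No doublet caller was run. Cells with 2 or more productive TCR beta chains (9.00% of WT, 9.58% of Cgas KO) were left out as an alternative. Pairs used genes seen in at least 1% of cells of both libraries.

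Genes were named in full over all kept cells, then by at most the 5 ratios farthest from 1 in a gate, and pairs by the 5 highest ratios. Further genes were chosen after their values were seen. The members and lists were chosen with earlier results of these data known. The calculations were tested on simulated data. Tools were scipy 1.17.1, numpy 2.4.6, matplotlib 3.10.9 and pandas 2.3.3 under Python 3.11.15, with TMM factors from edgeR 4.0.16 in R 4.3.3 as an alternative scaling only.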

Additional observations from a re-analysis of the deposited data

Results flagged for a closer look

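Ifi27l2a lay on opposite sides of 1 in the pair of states that share no cell. Its ratio of Cgas KO over WT was 1.02 (1.005 to 1.036) in S1pr1+ cells and 0.982 (0.964 to 1.0) in Itm2a+ S1pr1- cells. The difference between these ratios was not tested. Globin RNA appeared in barcodes of 20 to 199 UMIs, which the comparisons of cells do not use, at 148.7 CPM in Cgas KO and 106.6 CPM in WT.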

How the results depend on the processing

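Over all kept cells the summed ratio of the interferon-stimulated genes stayed between 0.918 and 0.948 (the latter with median-of-ratios size factors) and the median log2 ratio between -0.14 and -0.11 under every alternative run. With cells thinned to 2000 UMIs, genes lower in Cgas KO numbered 4 in all kept cells, 5 in Foxp3+, 1 in Cd8a+ Cd8b1+, 2 in Rag1+ and 7 in Nr4a1/Egr-high cells, and genes higher 1 in Foxp3+, 0 in Cd8a+ Cd8b1+ and 1 in Rag1+ cells. Summed ratios were then 0.944 (S1pr1+), 0.931 (Cd8a+ Cd8b1+) and, reversed, 1.05 (Rag1+, median log2 -0.076), and 7 genes passed 1.5-fold between S1pr1+ and Itm2a+ S1pr1- cells. In cells of exactly 1 gate the summed ratio reversed to 1.28 in Foxp3+ and 1.69 in Rag1+ cells (15 and 11 cells), and was 0.971 in S1pr1+, 0.937 in Cd8a+ Cd8b1+ and 0.899 in Nr4a1/Egr-high cells. The ratios of shares there were 1.02 (Cd8a+ Cd8b1+), 2.39 (Rag1+) and 0.984 (Nr4a1/Egr-high). With gates at 2 UMIs summed ratios were 0.915 (Itm2a+ S1pr1-) and 0.679 (Rag1+). Shares over all genes were not counted for the gene counts that follow, nor for genes higher in thinned Foxp3+ and Rag1+ cells. Those counts describe the settings and cannot be read as results about the set. With a minimum of 20 UMIs, which tests more genes, 2 were higher in Foxp3+, 1 in Rag1+ and 1 in Nr4a1/Egr-high cells and 18 lower in Rag1+ cells. At 1.5-fold between genotypes 0 genes were lower and 0 higher in all kept cells and in S1pr1+ cells, 1 and 1 in Itm2a+ S1pr1- cells, 2 and 0 in Cd8a+ Cd8b1+ cells, and 3, 2 and 3 were lower in Foxp3+, Rag1+ and Nr4a1/Egr-high cells. At 2-fold between states 3 were higher in S1pr1+ than in Itm2a+ S1pr1- cells and 3 than outside, 0 in Foxp3+ cells, and 2, 2, 10 and 0 were lower in Itm2a+ S1pr1-, Cd8a+ Cd8b1+, Rag1+ and Nr4a1/Egr-high cells. From 3000 UMIs 1 gene was higher in Cd8a+ Cd8b1+ and 1 in Rag1+ cells, with a Rag1+ summed ratio of 0.809. Without cells of 2 or more beta chains the Foxp3+ summed ratio was 0.934 and 1 gene was higher in Cd8a+ Cd8b1+ cells. Without Ifi27l2a summed ratios were 0.918 (all), 0.825 (Foxp3+), 0.921 (S1pr1+), 0.9102 (Itm2a+ S1pr1-), 0.813 (Rag1+) and 0.846 (Nr4a1/Egr-high). Without Rsad2 and Cmpk2, 0 genes were higher in any of the groups that held them. This had to be so, because no other gene of the set was higher there. The ratio of shares was 0.978 in S1pr1+ cells with all UMIs. For at least 2 genes it was 0.978 (all) and 0.976 (S1pr1+), and for at least 5 it was 0.902 (all), 0.904 (S1pr1+), 0.882 (Itm2a+ S1pr1-) and 0.772 (Nr4a1/Egr-high). Chosen after seeing the data, at least 10 genes gave 0.866 (all), 0.787 (Foxp3+), 0.872 (S1pr1+), 0.825 (Itm2a+ S1pr1-), 0.7998 (Cd8a+ Cd8b1+), 0.967 (Rag1+) and 0.652 (Nr4a1/Egr-high). The interval included 1 in Foxp3+ (0.474 to 1.31), S1pr1+ (0.757 to 1.004), Cd8a+ Cd8b1+ (0.577 to 1.11) and Rag1+ cells (0.376 to 2.49). Leaving out barcodes of both libraries, also chosen after seeing the data, gave 1 gene higher in Rag1+ cells. Other than where the alternative itself changes the cells or genes counted, the cause was not tested. No paired analysis was possible because each genotype had 1 expression library. Depth limits the rare genes and the small Foxp3+ and Rag1+ gates most.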
